A study of Mus musculus with 24 samples.

Results

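Myb, Myc, Cd34, Sox4, Lmo2, Erg, Cdk6, Msi2, Bcat1 and Cd93 are 10 genes that are known for their roles in blood stem and progenitor cells. They were taken by name from the 22371 genes of the deposited RNA-seq tables, and every deposited peak or methylation region within 50 kb of a gene span was assigned to that gene. All 10 passed the filter of at least 1 RPKM in 1 or both libraries, as did 10436 genes in all. RPKM is the read count scaled by gene length and library size.

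The cells were bone marrow cells of the mouse made immortal with HOXA9, a homeobox protein that sustains self-renewal of myeloid progenitors, and in both groups compared they carried an IDH1 R132H vector. This mutant enzyme makes 2-hydroxyglutarate, which inhibits 2-oxoglutarate-dependent dioxygenases such as the TET enzymes, and vitamin C is a cofactor that helps TET enzymes oxidize 5-methylcytosine. The vitamin C group of IDH1 R132H cells received 0.345 mM vitamin C at 0, 24 and 48 h and was harvested at 72 h. The untreated group of IDH1 R132H cells received none, and its harvest time is not given in the labels. Both grew in medium with serum, IL-3, IL-6 and SCF, and the labels give neither the vector's promoter nor whether the cells were 1 clone. Each group had 1 library per assay: polyA RNA-seq, ChIP-seq for 3 histone marks and the factors PU.1 and Runx1, whole-genome bisulfite sequencing (WGBS), and antibody capture of methylated DNA (MeDIP-seq) or hydroxymethylated DNA (hMeDIP-seq). With 1 library per group no test between groups was possible, so the values below describe these libraries, and intervals cover counting error only. One list of regions is attached to an untreated sample of cells with the IDH1 wt vector, the only data from wild-type IDH1 used here.

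The 10 genes act at different levels of the same cell state. MYB, MYC, SOX4, LMO2 and ERG are nuclear regulators: MYB and MYC drive the growth of progenitors, ERG is an ETS factor needed by stem cells, and LMO2 is a bridging protein that joins TAL1 or LYL1 to GATA factors. CDK6 is the D-cyclin-dependent kinase of early blood cells, MSI2 is an RNA-binding protein that supports self-renewal, and BCAT1 is the cytosolic aminotransferase of branched-chain amino acids. CD34 and CD93 are surface glycoproteins used as markers of progenitors.

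The RNA libraries held 111453443 counted reads with vitamin C and 86804487 counted reads untreated. The labelled origin was checked against marker lists. The 5 primary granule genes of myeloid progenitors, such as Ctsg and Mpo, summed to 1657 RPKM with vitamin C and 3497 RPKM untreated. The 7 monocyte and macrophage genes summed to 1888 RPKM with vitamin C and 1381 RPKM untreated, and the 6 mast cell and basophil genes to 2713 RPKM with vitamin C and 2022 RPKM untreated. Of 6 lymphoid markers 5 were below 1 RPKM in both libraries, as were 4 of 5 endothelial markers and 6 of 7 late granulocyte markers, and Cd3e, Kdr, Emcn and Camp had no counted read in either. The exceptions were the lymphoid marker Nkg7, at 26.1 RPKM with vitamin C and 26.6 RPKM untreated, and the endothelial marker Pecam1, at 170 RPKM with vitamin C and 155 RPKM untreated. The late granulocyte exception was Lcn2, at 21.6 RPKM with vitamin C and 23.6 RPKM untreated. The erythroid list summed to 385 RPKM with vitamin C and 341 RPKM untreated, nearly all from Hbb-bs, and the megakaryocyte list to 153 RPKM with vitamin C and 160 RPKM untreated, mostly from Itga2b. The part of these shifts in the members' values was not tested, and in bulk RNA fewer cells of a type and less RNA per cell cannot be told apart.

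None of the 10 genes differed by 2-fold or more between the libraries, on a scale of log2 of RPKM + 0.5 (2.38% of all genes were that much higher with vitamin C and 1.92% that much lower). At 1.5-fold, 1 member was higher with vitamin C, Cd34, and 1 was lower, Sox4 (6.21% of all genes were higher and 6.64% lower). On that scale 8 of the 10 log2 changes were below 0 and 2 were above 0, beside 5757 below and 4679 above among all 10436 genes. The members' median was −0.21, against −0.04 over all genes. Sox4 was the only member on either of the authors' deposited gene lists, the one of 221 genes that were lower with vitamin C.

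**Figure D1:**
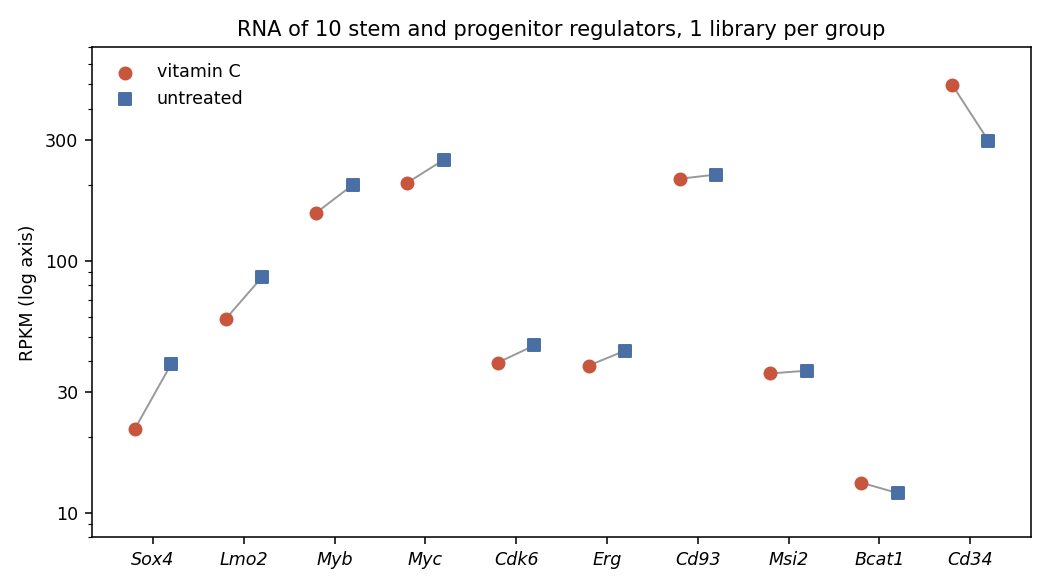
RPKM (log axis) of the 10 genes in the vitamin C library (circles) and the untreated library (squares), 1 library per group, in order of log2 change. Sox4 at the left had 21.5 RPKM with vitamin C and 38.8 RPKM untreated, and Cd34 at the right had 498 RPKM with vitamin C and 299 RPKM untreated, while the other 8 genes differed less.

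The nuclear regulators, 5 in all, had lower RPKM with vitamin C. Sox4, an HMG-box factor that is active in lymphoid and myeloid progenitors and in leukaemia, had 21.5 RPKM from 9575 reads with vitamin C and 38.8 RPKM from 13542 reads untreated. The ratio of RPKM, vitamin C over untreated, was 0.553 (95% counting interval 0.539 to 0.568), a log2 change of −0.84. Of all 10436 genes, 299 had a log2 change as low or lower, or 2.87%. Lmo2 followed with 58.6 RPKM with vitamin C and 85.9 RPKM untreated, a ratio of 0.683 (0.666 to 0.700) and a log2 change of −0.55. For Lmo2, 7.48% of genes had a log2 change as low or lower.

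Myb had 155 RPKM with vitamin C and 200 RPKM untreated, a ratio of 0.776 (0.767 to 0.786). Myc had 203 RPKM with vitamin C and 251 RPKM untreated, a ratio of 0.812 (0.802 to 0.822). Both remained among the most abundant RNAs: by RPKM among all genes, Myb ranked 368 with vitamin C and 250 untreated, and Myc ranked 246 with vitamin C and 170 untreated. The shift of Erg was smaller, with 38.4 RPKM with vitamin C and 43.9 RPKM untreated and a ratio of 0.873 (0.851 to 0.896).

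The kinase, the RNA-binding protein and the metabolic enzyme differed by little. Cdk6 had 39.4 RPKM with vitamin C and 46.1 RPKM untreated, a ratio of 0.856 (0.835 to 0.877). Msi2 had 35.7 RPKM with vitamin C and 36.6 RPKM untreated, a ratio of 0.975 (0.960 to 0.991), and its log2 change of −0.04 turned to 0.01 once changes were centred on the median gene. Bcat1 had 13.2 RPKM with vitamin C and 12.0 RPKM untreated, a ratio of 1.10 (1.07 to 1.13). It was the least abundant member in both libraries.

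The surface genes parted. Cd34 had 498 RPKM from 121292 reads with vitamin C and 299 RPKM from 56902 reads untreated, a ratio of 1.67 (1.65 to 1.68) and a log2 change of 0.74. It ranked 61 of all genes by RPKM with vitamin C and 129 untreated, and 442 genes, or 4.24%, had a log2 change as high or higher. Cd93 had 211 RPKM with vitamin C and 219 RPKM untreated, a ratio of 0.963 (0.955 to 0.971). By level the order of the 10 genes was Cd34, Cd93, Myc, Myb, Lmo2, Cdk6, Erg, Msi2, Sox4 and Bcat1 with vitamin C. Untreated, it was Cd34, Myc, Cd93, Myb, Lmo2, Cdk6, Erg, Sox4, Msi2 and Bcat1, so Cd93 and Myc, and Msi2 and Sox4, changed places. Neighbours such as Cdk6 and Erg, or Cd93 and Myc, lay within a few RPKM in 1 or both libraries, and without replicates their order could not be tested.

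Genes that work with the members were read from 9 lists of partners, targets and relatives. Among 22 transcription factors of stem and progenitor cells, 18 reached 1 RPKM, of which 2 were 1.5-fold or more higher with vitamin C and 4 lower, with a median log2 change of 0.01. Hlf, a PAR bZIP factor of stem cells, was the only one of these past 2-fold, with 6.38 RPKM with vitamin C and 17.0 RPKM untreated. Meis1, the HOXA9 cofactor, had 10.0 RPKM with vitamin C and 18.3 RPKM untreated, while Gfi1b, a repressor of erythroid and megakaryocytic cells, had 14.0 RPKM with vitamin C and 7.98 RPKM untreated. Lyl1, which binds LMO2, had 127 RPKM with vitamin C and 201 RPKM untreated. Spi1, which encodes PU.1, had 83.0 RPKM with vitamin C and 105 RPKM untreated. Runx1 had 66.3 RPKM with vitamin C and 52.5 RPKM untreated. Hoxa10 and Hoxa7 had no counted read in either library.

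Of 14 partners of LMO2, 13 reached 1 RPKM, and 2 were 1.5-fold or more higher with vitamin C and 2 lower. The GATA members of that list were higher, Gata1 with 4.21 RPKM with vitamin C and 1.06 RPKM untreated, and Gata2 with 142 RPKM with vitamin C and 91.4 RPKM untreated. Gata1 is also on the mast cell and basophil list, in which all 6 genes had log2 changes above 0 and 3 were 2-fold or more higher. Tcf4, an E protein, had 1.56 RPKM with vitamin C and 2.71 RPKM untreated. The median of the LMO2 partners was −0.17.

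Lists around MYC and MYB differed little. Of 20 MYC targets, 14 had log2 changes below 0, beside 5757 of all 10436 genes, with a median of −0.18. In that list 1 gene was 1.5-fold or more higher, the lactate dehydrogenase gene Ldha, at 618 RPKM with vitamin C and 372 RPKM untreated. The largest negative changes in that list were small: Rrp12, a ribosome biogenesis gene, had 19.7 RPKM with vitamin C and 25.6 RPKM untreated, and Mybbp1a had 127 RPKM with vitamin C and 163 RPKM untreated. Of 12 genes of the MYC network, 11 reached 1 RPKM with a median of 0.01. Mxd1, which competes with MYC for MAX, was 1.5-fold or more higher, at 23.8 RPKM with vitamin C and 12.6 RPKM untreated, while its relative Mxd4 had 36.0 RPKM with vitamin C and 48.5 RPKM untreated. None of 8 MYB partners and relatives passed 1.5-fold, and their median was 0.14. The survival gene Bcl2 had 42.5 RPKM with vitamin C and 31.6 RPKM untreated.

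Of 19 genes of cell cycle entry around CDK6, 18 reached 1 RPKM, 14 had log2 changes above 0, beside 4679 of all 10436 genes, and the median was 0.29. The list pools cyclins and kinases with inhibitors such as Cdkn1a and Cdkn2b, so its median gives no direction for cell cycle entry. Cdkn1a, the p21 inhibitor of cyclin-dependent kinases, was the only one past 2-fold, with 167 RPKM with vitamin C and 70.2 RPKM untreated, a ratio of 2.38 (2.33 to 2.44). Ccnd3, a D-type cyclin that pairs with CDK6, had 172 RPKM with vitamin C and 115 RPKM untreated. Ccne2, an E-type cyclin that activates CDK2, had 9.94 RPKM with vitamin C and 6.49 RPKM untreated. Cdkn2b, the p15 inhibitor of CDK4 and CDK6, had 2.22 RPKM with vitamin C and 3.79 RPKM untreated.

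Around BCAT1, 9 of 10 genes of branched-chain amino acid metabolism reached 1 RPKM, with a median log2 change of −0.08. Bckdha, a subunit of the dehydrogenase that commits the keto acids to breakdown, had 77.5 RPKM with vitamin C and 125 RPKM untreated. Bckdk, the kinase that inactivates that dehydrogenase, had 59.4 RPKM with vitamin C and 37.6 RPKM untreated. The amino acid transporter gene Slc7a5 had 209 RPKM with vitamin C and 145 RPKM untreated. Of the 8 RNA-binding genes listed with MSI2, 6 reached 1 RPKM with a median of −0.04, and 1 was 2-fold or more lower. That gene, Igf2bp3, was listed at 0 reads with vitamin C and at 634 reads, or 2.01 RPKM, untreated.

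Among the other surface genes of stem and progenitor cells, differences went both ways. Of 14 listed, 10 reached 1 RPKM, of which 2 were 2-fold or more higher with vitamin C and 3 lower. Kit, the SCF receptor, had 5.07 RPKM with vitamin C and 32.1 RPKM untreated, a ratio of 0.158 (0.152 to 0.165). Cd9, a tetraspanin, had 78.0 RPKM with vitamin C and 29.7 RPKM untreated. Flt3, the FLT3 ligand receptor, had 2.95 RPKM with vitamin C and 6.97 RPKM untreated, and Procr, the protein C receptor of stem cells, had 0.238 RPKM with vitamin C and 1.41 RPKM untreated. Cd34 and Kit, which are often used together to gate progenitors, thus lay on opposite sides.

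Chromatin was read from peak lists made per library. H3K4me3 marks active promoters, H3K27ac active promoters and enhancers, and H3K4me1 mostly enhancers. For histone peaks each peak has a significance value (p or q, not stated which) and for PU.1 and Runx1 a score, both the authors' own and used only within a list. A peak is called found when it overlaps a peak of the other library by 1 bp or more.

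Promoters of 7 of the 10 genes, 12 in all, were in a RefSeq promoter table (build GRCm38.p6, the assembly also named mm10), as 300 bases around each start. Lmo2, Myc and Cd93 had no entry. Of the 12 promoters, 9 lay under H3K4me3 and under H3K27ac in both libraries, and each of the 7 genes had at least 1 of them. Over all 32544 promoters of the table, 39.8% lay under H3K4me3 with vitamin C and 39.5% untreated, and 32.5% under H3K27ac with vitamin C and 32.7% untreated. The table was not filtered for expression, here or in later shares of promoters, while all 7 genes were expressed. Shares over promoters of expressed genes were not computed. The 3 member promoters without either mark were an inner start of Bcat1 and a pair of upstream starts of Erg.

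The promoters of Cd34 and Sox4 are shown because these members had the largest changes of RNA, with every CpG of Cd34 and the single GAGGAA of Sox4, the core letters bound by PU.1, in capitals.
Cd34 promoter, chr1:194938571-194938870, plus strand: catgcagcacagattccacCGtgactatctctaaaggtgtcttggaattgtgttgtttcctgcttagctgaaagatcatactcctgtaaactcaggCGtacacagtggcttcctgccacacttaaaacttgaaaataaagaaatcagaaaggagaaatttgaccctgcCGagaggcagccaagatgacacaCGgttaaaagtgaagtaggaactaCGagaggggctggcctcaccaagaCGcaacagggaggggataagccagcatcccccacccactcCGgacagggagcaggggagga
Sox4 promoter, chr13:28953650-28953949, minus strand: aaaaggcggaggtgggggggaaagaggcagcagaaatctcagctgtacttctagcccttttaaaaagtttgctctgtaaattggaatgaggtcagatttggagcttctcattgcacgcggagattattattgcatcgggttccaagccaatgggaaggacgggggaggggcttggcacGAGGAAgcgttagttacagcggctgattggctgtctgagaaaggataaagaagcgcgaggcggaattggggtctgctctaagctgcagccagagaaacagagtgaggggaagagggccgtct
The Cd34 promoter holds 7 CpGs, equal to the median promoter of the table, and none of the 3 motifs searched on both strands (TGTGGT for Runx, GAGGAA for PU.1, and CACGTG, the E-box of MYC and MAX, which reads alike on both strands). The Sox4 promoter holds 12 CpGs and 1 GAGGAA, a motif found in 28.1% of the 32544 promoters. No other motif of the 3 matched there, so no matches overlap. A letter match is not binding: the PU.1 peak nearest to the Sox4 promoter lay 90826 bp away with vitamin C and 35801 bp away untreated. Of the 12 member promoters, 0 lay under a PU.1 peak in either library, beside 4.50% of all promoters with vitamin C and 11.4% untreated.

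At the Cd34 start the H3K27ac peak was 2823 bp long with vitamin C and 5862 bp long untreated, and the H3K4me3 peak 5973 bp with vitamin C and 5374 bp untreated. At the Sox4 start both marks were of like length in the libraries: H3K27ac covered 4662 bp with vitamin C and 4618 bp untreated, and H3K4me3 covered 5574 bp with vitamin C and 5284 bp untreated. In the vitamin C library the stretch under the untreated Cd34 H3K27ac peak was split into the peak over the start and neighbours of 2050 and 290 bp. The length of the peak over the Cd34 start leaves out these neighbours, and a link to the higher RNA was not tested. Over the whole Cd34 window H3K27ac peaks covered 15644 bp with vitamin C and 18305 bp untreated. At Cdk6 the H3K27ac peak over the start was 8142 bp long with vitamin C and 7904 bp untreated, and at Myb 6792 bp with vitamin C and 7333 bp untreated. The longest H3K27ac peaks inside the spans of Myc and Cd93, which have no start in the table, were 2756 bp with vitamin C and 2843 bp untreated at Myc, and 6718 bp with vitamin C and 7500 bp untreated at Cd93. The longest H3K27ac peak near Lmo2 lay below the gene span and covered 9765 bp with vitamin C and 10498 bp untreated. Peak length is not a signal level, which the lists do not give.

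Over all 10 windows H3K4me3 was similar, with 144 peaks with vitamin C and 136 untreated. Of the vitamin C peaks 86.1% were found in the untreated library (85.7% in the whole list), and of the untreated peaks 89.7% were found with vitamin C (90.5% in the whole list). For H3K27ac the share of vitamin C peaks found was lower than in the whole list, and that of untreated peaks was near it. Of 145 vitamin C peaks, 77.2% were found in the untreated library (95% interval 69.5% to 83.8%; 88.8% in the whole list), and of 138 untreated peaks, 83.3% were found with vitamin C (76.0% to 89.1%; 86.6% in the whole list). Of the 33 vitamin C peaks that were not found, 20 lay near Cdk6 or Erg: 12 of the 39 peaks near Cdk6 and 8 of the 16 near Erg. The lower share thus rests largely on Cdk6 and Erg, and it was not recomputed without them. The median p or q value of the 33 peaks was 3.39e-12, against 3.22e-54 for the vitamin C peaks that were found. The member windows were dense in this mark, with 73.3 peaks per Mb with vitamin C and 69.8 untreated, against 34.4 per Mb with vitamin C and 34.8 untreated in the windows of all expressed coding genes.

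H3K4me1 covered less of the member windows with vitamin C. It had 74 peaks and 452130 bp with vitamin C, against 85 peaks and 856030 bp untreated, or 22.9% of the windows with vitamin C and 43.3% untreated. The whole lists differed in the same direction, with 108366140 bp covered with vitamin C and 183243611 bp untreated. Of the members' vitamin C peaks 60.8% were found untreated (57.5% in the whole list), and of the untreated peaks 48.2% were found with vitamin C (41.1% in the whole list). The genes varied: 64.7% of the Cdk6 window was covered with vitamin C and 69.3% untreated, while 9.92% of the Cd34 window was covered with vitamin C and 70.8% untreated. At Cd34 a 41284 bp domain lay over the start in the untreated library, and with vitamin C the longest peak was 7125 bp and lay 7144 bp from the start. At Myb 33.5% of the window was covered with vitamin C and 72.9% untreated, and at Msi2 15.5% with vitamin C and 47.2% untreated, where a single untreated domain inside the gene spanned 124557 bp. Cd93 differed little, with 32.3% covered with vitamin C and 36.9% untreated. Myc had no H3K4me1 peak with vitamin C and 1 of 1003 bp untreated. Bcat1 went the other way, with 13.3% covered with vitamin C and 6.10% untreated.

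PU.1, an ETS factor of myeloid cells, had fewer listed peaks with vitamin C at each of the 10 genes. In all there were 48 peaks with vitamin C and 124 untreated. Of the vitamin C peaks 95.8% were found untreated (95.2% in the whole list), while of the untreated peaks 37.9% were found with vitamin C (95% interval 29.3% to 47.1%; 36.1% in the whole list), both shares close to those of the lists. The lists themselves hold 23522 peaks with vitamin C and 61611 untreated. Untreated peaks that were found had a median score of 26.4, and those that were not had a median score of 6.71.

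**Figure D2:**
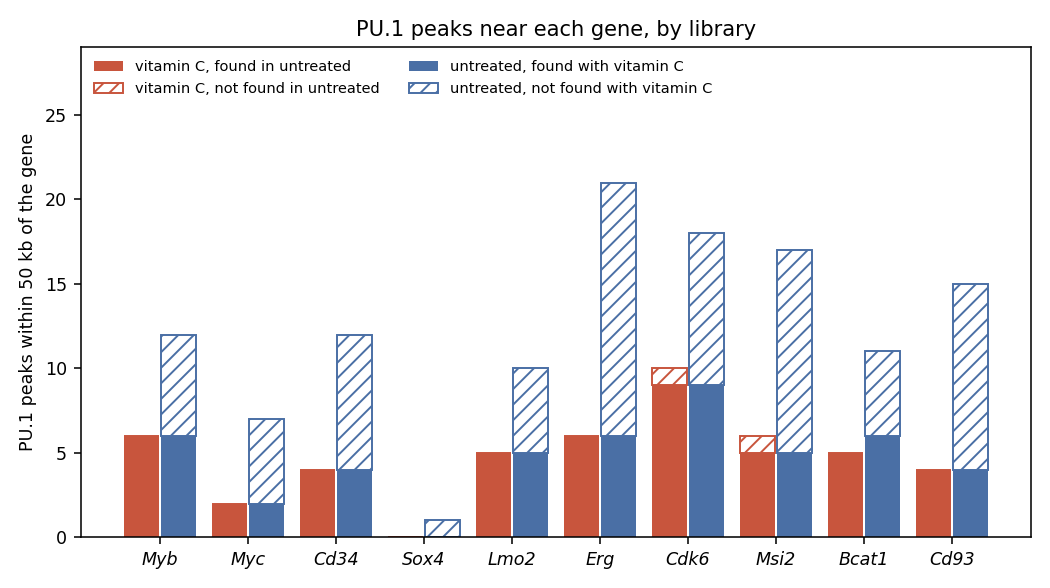
Number of PU.1 peaks within 50 kb of each gene in the vitamin C library (left bars) and the untreated library (right bars), filled where the peak overlaps 1 of the other library and hatched where it does not. Erg had 6 peaks with vitamin C and 21 untreated, and 46 of the 48 vitamin C peaks were also listed untreated.

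The strongest untreated PU.1 peak overlapped a vitamin C peak at 9 of the 10 members, all but Sox4. The same count over all expressed genes was not made. In the whole list, untreated peaks found with vitamin C had a median score of 20.1, and those not found 6.18, so strong peaks were found more often there too. At Cd34 the strongest peak of both libraries lay just upstream, 2947 bp from the start with vitamin C and 2831 bp untreated, with 4 peaks in the window with vitamin C and 12 untreated. At Cdk6 the strongest lay 158640 bp downstream of the start with vitamin C and 158614 bp untreated, inside the gene, and 10 peaks were listed with vitamin C and 18 untreated. At Msi2 the strongest also lay inside the gene, 158451 bp from the start with vitamin C and 158447 bp untreated. The strongest peak of Lmo2 lay 22905 bp below the gene span with vitamin C and 22815 bp untreated. The strongest peaks of Cd93, at 47636 bp with vitamin C and 47115 bp untreated, and of Bcat1, at 47641 bp with vitamin C and 45346 bp untreated, lay above the gene spans near the edge of the windows. Myb had 6 peaks with vitamin C and 12 untreated, Lmo2 5 with vitamin C and 10 untreated, Msi2 6 with vitamin C and 17 untreated, Bcat1 5 with vitamin C and 11 untreated, and Cd93 4 with vitamin C and 15 untreated. Sox4 had no PU.1 peak with vitamin C and 1 untreated, with a score of 4.97. Myc had 2 with vitamin C and 7 untreated and the strongest lay 41872 bp above the span with vitamin C and 12543 bp above it untreated.

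Runx1 peaks were few, with 6 near the members with vitamin C and 4 untreated. Of the vitamin C peaks 50.0% were found untreated (50.7% in the whole list), and of the untreated peaks 75.0% were found with vitamin C (81.8% in the whole list). The density was 3.03 per Mb with vitamin C and 2.02 untreated, against 6.84 per Mb with vitamin C and 4.14 untreated in the windows of all expressed coding genes. The only member promoters under a Runx1 peak were the 3 overlapping ones of Msi2, with a score of 29.8 with vitamin C and 7.62 untreated, which are scores of separate lists. Runx1 peaks overlapped 15.2% of all promoters with vitamin C and 8.51% untreated. The first of these Msi2 promoters is shown since it is the site of that peak, with its CACGTG matches in capitals.
Msi2 promoter, chr11:88718228-88718527, minus strand: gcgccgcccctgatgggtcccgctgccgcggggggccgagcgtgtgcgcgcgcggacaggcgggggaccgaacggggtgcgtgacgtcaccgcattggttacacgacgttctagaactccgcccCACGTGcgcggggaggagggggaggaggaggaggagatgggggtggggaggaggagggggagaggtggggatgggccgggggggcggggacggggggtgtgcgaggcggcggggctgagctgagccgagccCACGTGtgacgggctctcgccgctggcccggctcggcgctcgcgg
It holds 2 CACGTG, a motif found in 7.17% of the promoters, 39 CpGs, and no TGTGGT, a motif found in 16.7% of them. The vitamin C peak covers 275 of its 300 bases. Myb, Cd34 and Cd93 each had a Runx1 peak with vitamin C and none untreated, with scores of 6.66, 11.5 and 5.54.

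The methylation lists give positions only. Their names hold deMR, iMR or iHR, and the libraries compared, the direction and the thresholds are not given in the labels, so the names are used as deposited. In all 64 regions lay within 50 kb of a member, of which 21 belonged to Cdk6 and 13 to Erg. Myc had none in any of the 6 lists.

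**Figure D3:**
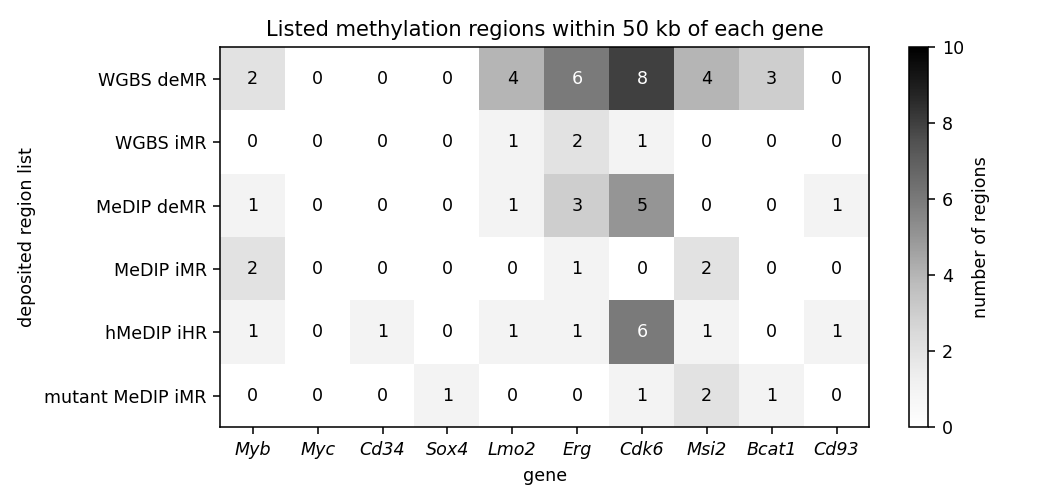
Number of regions of each deposited list (rows) within 50 kb of each of the 10 genes (columns), with darker cells for more regions. Cdk6 had 8 WGBS deMRs and 6 hMeDIP iHRs, and Myc had none.

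The WGBS deMR list, attached to the vitamin C sample, held 27 regions near 6 members, against 46.2% of 9856 expressed coding genes with at least 1. Cdk6 had 8, Erg 6, Lmo2 and Msi2 4 each, Bcat1 3 and Myb 2. Their density was 13.7 per Mb, against 5.17 per Mb in the windows of all expressed coding genes. By density the other lists differed less: MeDIP deMRs had 5.56 per Mb, against 3.10, MeDIP iMRs 2.53, against 1.85, and hMeDIP iHRs 6.07, against 4.80, while WGBS iMRs had 2.02 per Mb, against 2.43, and the mutant MeDIP iMR list 2.53, against 3.12. The WGBS deMRs were short, from 30 to 492 bp with a median of 177 bp, and 23 of the 27 lay inside a gene span. Of the other lists, 4 WGBS iMRs lay near 3 members (26.6% of expressed coding genes had 1 or more), 11 MeDIP deMRs near 5 members (38.1%), 5 MeDIP iMRs near 3 members (21.3%), 12 hMeDIP iHRs near 7 members (45.4%) and 5 regions of the mutant MeDIP iMR list near 4 members (39.3%). With 10 members these counts lie near or moderately above the background shares. Msi2, Erg and Cdk6 are long genes of 378925, 227432 and 190005 bp, and longer windows can hold more regions.

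Most WGBS deMRs near the members lay under H3K4me1. Of the 27, 23 or 85.2% overlapped an untreated H3K4me1 peak (95% interval 66.3% to 95.8%), against 55.7% of the deMRs in all expressed gene windows, and 63.0% overlapped a vitamin C H3K4me1 peak, against 37.6%. The intervals here treat each deMR as independent, which they are not. Of the 8 deMRs of Cdk6, 7 lay in 1 untreated H3K4me1 peak of 79920 bp, so the intervals are too narrow. Untreated H3K4me1 covered 43.3% of the member windows. The whole untreated list covered 183243611 bp, while the windows of all expressed coding genes span 859033268 bp. The member windows thus held more of this mark than those windows, and the shares of deMRs were not adjusted for it. H3K27ac lay over 16 of the 27, or 59.3%, with vitamin C (35.1% in all expressed gene windows) and over 10, or 37.0%, untreated (95% interval 19.4% to 57.6%; 28.4% in all expressed gene windows), so the untreated share was near its background. All 10 of the untreated were among the 16, and the other 6 lay near Cdk6, Lmo2, Erg and Bcat1. PU.1 peaks lay over 1, or 3.70%, with vitamin C (7.23% in all expressed gene windows) and over 2, or 7.41%, untreated (17.3%), and Runx1 peaks over none, which allows up to 12.8% by the exact interval.

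Cdk6 had the most listed methylation regions of the members, with 21 over the 6 lists, though none of the MeDIP iMR list. Its 8 WGBS deMRs all lay inside the gene, and the region lists of both methylation assays met there at 2 sites. How often these lists overlap over the whole genome was not computed, so the 2 sites have no background beside them. At chr5:3382381-3382585, 38488 bp downstream of the start, a WGBS deMR of 205 bp lay within a MeDIP deMR of 1000 bp. At chr5:3488338-3488704, 144445 bp downstream, a WGBS deMR of 367 bp lay within a MeDIP deMR of 750 bp. The second site lies in the longest H3K27ac peak of the Cdk6 window, which spans 19041 bp with vitamin C and 16628 bp untreated. A WGBS iMR of 57 bp, 3 of the hMeDIP iHRs and the strongest PU.1 peaks of Cdk6 were also inside the gene. The MeDIP deMRs are attached to the untreated sample and the WGBS deMRs to the vitamin C sample, so whether the lists carry the same direction is not known.

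**Figure D4:**
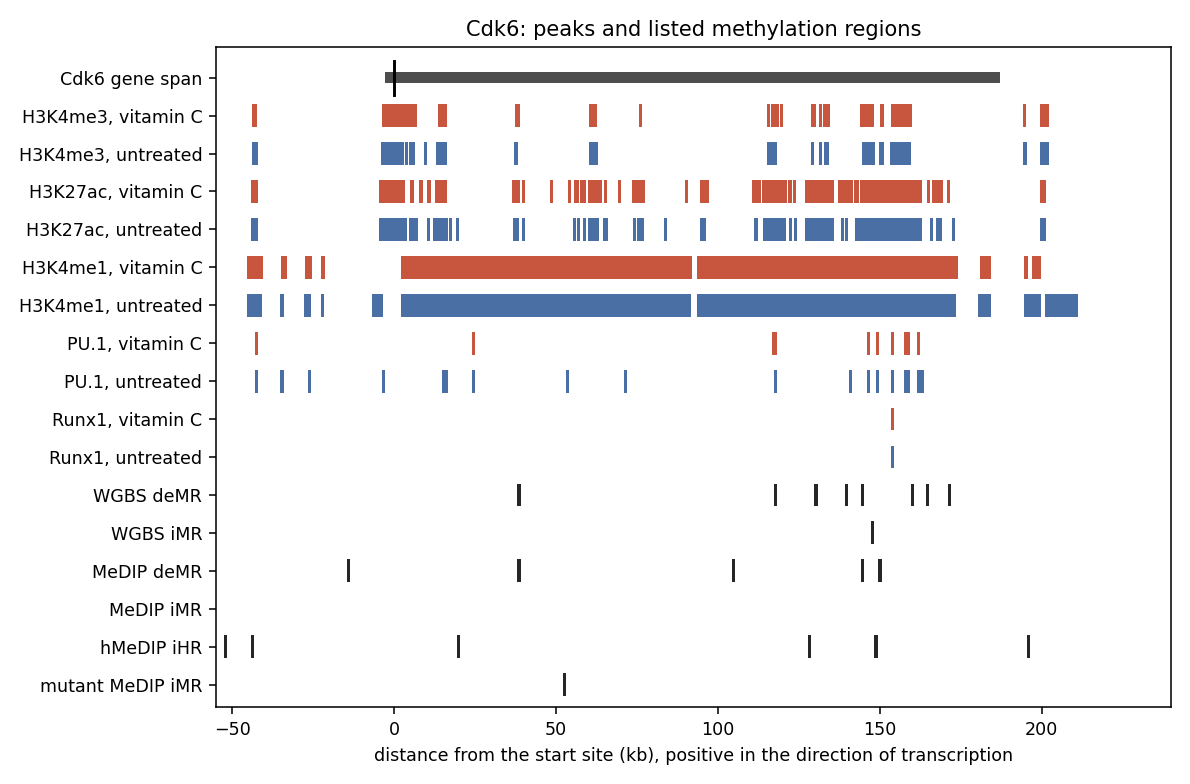
Map of the Cdk6 window by distance from the start site (kb), with vitamin C peaks in red, untreated peaks in blue and listed regions in black, the shortest drawn wider than to scale so that they are seen. H3K4me1 covers most of the gene in both libraries, and 7 of the 8 WGBS deMRs lie between 117813 and 171310 bp from the start.

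The Cdk6 promoter itself carried no listed region. It holds 27 CpGs and 1 CACGTG, in capitals here, and is shown as the start from which these distances are counted.
Cdk6 promoter, chr5:3343643-3343942, plus strand: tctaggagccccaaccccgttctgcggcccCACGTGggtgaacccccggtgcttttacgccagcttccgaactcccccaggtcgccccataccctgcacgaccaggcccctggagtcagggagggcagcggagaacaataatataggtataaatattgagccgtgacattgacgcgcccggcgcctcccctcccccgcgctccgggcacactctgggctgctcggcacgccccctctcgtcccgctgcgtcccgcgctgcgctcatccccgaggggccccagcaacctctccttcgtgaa
The nearest WGBS deMR lies 38439 bp from this window, and the nearest MeDIP deMR 13643 bp.

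Erg has 3 annotated starts in the table, and they differed in marks. The innermost start lay under H3K4me3, in peaks of 10022 bp with vitamin C and 10321 bp untreated, and under H3K27ac, in peaks of 30686 bp with vitamin C and 16468 bp untreated. In the untreated library the same stretch of H3K27ac was split into that peak and a neighbour of 13917 bp. The outermost start had no H3K27ac peak within 53326 bp with vitamin C and 53300 bp untreated, and its nearest H3K4me3 peak lay 591 bp away with vitamin C and 599 bp untreated. A WGBS iMR of 239 bp, a list attached to the untreated sample, covered bases 28 to 266 of the outermost promoter, with 14 of its 16 CpGs. Of the 32544 promoters, 1.35% overlap a WGBS iMR. Both promoters are shown because they contrast a listed region with a marked start: capitals give the WGBS iMR in the outermost promoter and the CpGs in the innermost.
Erg outermost promoter, chr16:95586544-95586843, minus strand: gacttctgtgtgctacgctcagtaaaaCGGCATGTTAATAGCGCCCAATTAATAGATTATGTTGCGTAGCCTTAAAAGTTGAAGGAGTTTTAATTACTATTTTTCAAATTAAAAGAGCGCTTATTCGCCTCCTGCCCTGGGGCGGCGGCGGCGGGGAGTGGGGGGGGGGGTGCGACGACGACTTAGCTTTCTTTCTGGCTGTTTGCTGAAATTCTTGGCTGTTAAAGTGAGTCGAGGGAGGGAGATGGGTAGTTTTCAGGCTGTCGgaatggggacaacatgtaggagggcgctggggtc
Erg innermost promoter, chr16:95459299-95459598, minus strand: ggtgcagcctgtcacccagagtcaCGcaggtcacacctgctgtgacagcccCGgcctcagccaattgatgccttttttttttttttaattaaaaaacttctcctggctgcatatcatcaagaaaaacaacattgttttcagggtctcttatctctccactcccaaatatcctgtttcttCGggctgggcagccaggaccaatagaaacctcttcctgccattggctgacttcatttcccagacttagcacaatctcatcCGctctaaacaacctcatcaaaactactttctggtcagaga
The innermost promoter has 4 CpGs and overlaps no listed region. A WGBS deMR of 221 bp lies 1427 bp from the outermost promoter, and a second WGBS iMR of 30 bp lies next to that deMR. The RNA values are per gene and do not tell which start is used.

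**Figure D5:**
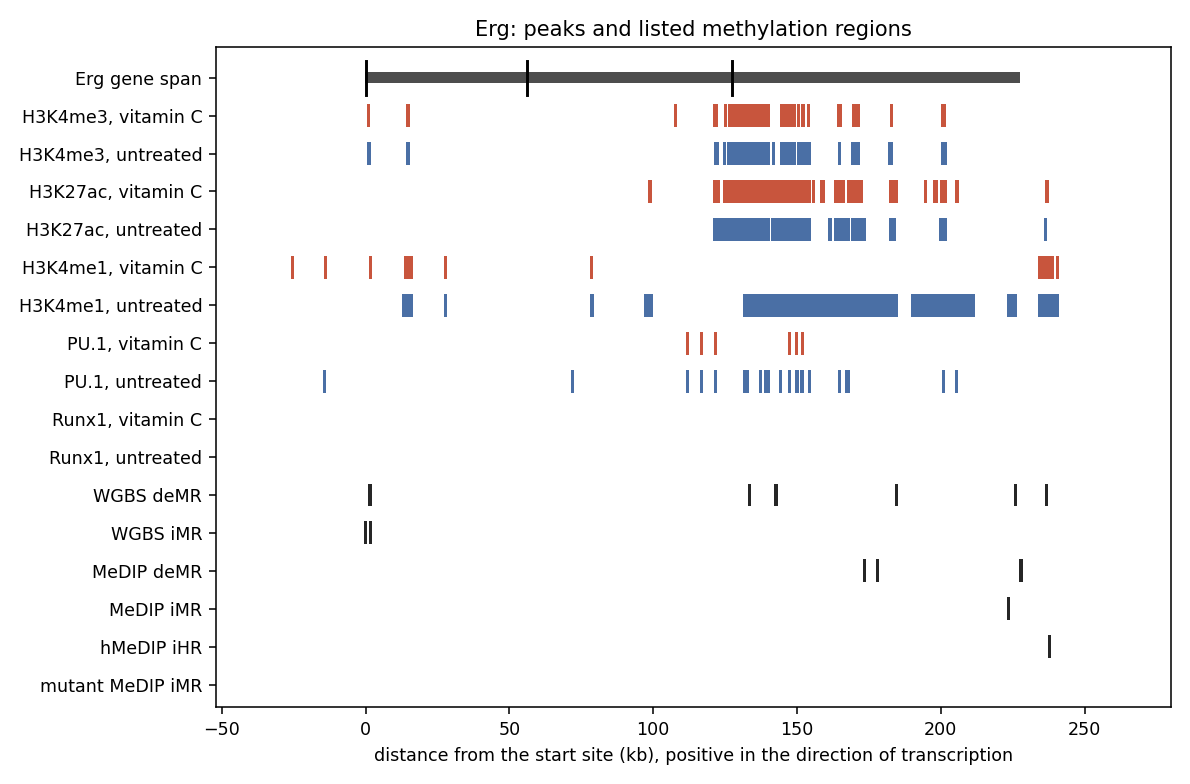
Map of the Erg window by distance from the outermost start site (kb), drawn as for Cdk6 with the 3 annotated starts as vertical lines on the gene. H3K4me3 and H3K27ac gather around the innermost start in both libraries, and the H3K4me1 domain of 53936 bp is seen in the untreated library.

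At Erg, H3K4me1 covered 4.04% of the window with vitamin C and 29.3% untreated. The untreated domain of 53936 bp beside the innermost start was not found with vitamin C. PU.1 peaks numbered 6 with vitamin C and 21 untreated, and H3K27ac peaks 16 with vitamin C and 14 untreated. Erg RNA was 0.873 of the untreated level, beside these larger differences in the PU.1 and H3K4me1 lists.

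At Cd34 a single listed region was found, an hMeDIP iHR at chr1:194995001-194995500, 33709 bp downstream of the gene span. It overlapped PU.1, H3K4me3 and H3K27ac peaks of both libraries and the Runx1 peak listed with vitamin C. No WGBS or MeDIP region was listed within 50 kb of Cd34, whose RNA had the highest ratio of the members. Sox4, whose RNA had the lowest ratio, also had a single region, of the mutant MeDIP iMR list, at chr13:28959001-28960000, 5302 bp upstream of its start. The list with that region is attached to the untreated IDH1 wt sample.

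The remaining members had scattered regions. At Lmo2, 3 of 4 WGBS deMRs lay inside the gene and all 4 under H3K4me1 of both libraries, and its WGBS iMR of 79 bp lay 21444 bp below the span. At Msi2 a pair of WGBS deMRs of 261 and 315 bp lay close together inside the gene, 135261 and 134628 bp from the start, under H3K4me1 of both libraries. Bcat1 had the longest WGBS deMR of the members, 492 bp at chr6:145100990-145101481, under H3K27ac of both libraries and 24833 bp above the span. Myb had 2 MeDIP iMRs and 1 MeDIP deMR, and its window also holds the gene Ahi1. Cd93 had an hMeDIP iHR of 1500 bp, 28651 bp below the span, and 1 MeDIP deMR, in a window that also holds Thbd and Sstr4. The windows of Lmo2, Cdk6, Msi2 and Bcat1 hold other coding genes too, so a region there need not belong to the member.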

How the data were processed

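The members and lists were chosen with earlier results of these data known. Of 24 samples, the 18 with processed files were used. The authors deposited, per library, a whole read count and an RPKM value per gene, scaled by gene length and library size. Histone peaks carry a p-value or q-value that the authors deposited without saying which. PU.1 and Runx1 peaks carry a score that the authors deposited without saying how it was made. Region lists hold positions only. The build, mm10, and the tools MACS2 2.1.0.2, Picard, Novoalign 3.02.08, BWA, SAMtools 0.1.16, 0.1.8 and 0.1.2, and CASAVA 1.8.2 come from the submitters' processing notes. The tool that counted reads is not given in the sources used here, nor is whether the count used strand.

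Python 3.11.15 with pandas 2.3.3, NumPy 2.4.6 and SciPy 1.17.1 was used. A log2 change compares RPKM + 0.5 with vitamin C to RPKM + 0.5 untreated, and a gene was kept if either library reached 1 RPKM. Ratios have exact binomial intervals of the reads, with the read depth set by the libraries' reads per RPKM (ratio 1.28), and shares have exact Clopper-Pearson intervals, both at 95% and for counting error only. The ratio intervals were run on simulated counts that had no spread between cultures, as the intervals assume, so that run checks the code only. The intervals of shares were not simulated. Repeated intervals in peak lists were removed. Gene spans came from RefSeq, GRCm38.p6, and coordinates count from 1. Windows reach 50 kb to each side, and an overlap is 1 bp or more. All 10 members were named. From each of 9 context lists up to 4 genes with the largest absolute log2 change could be named, and from each of 8 marker lists up to 2 with the highest RPKM. Spi1, Runx1, Hoxa10, Hoxa7, Cd3e, Kdr, Emcn and Camp are named outside this rule, after their values were seen. Other alternatives were the pseudocount, the filter, CPM from the counts, centring, window, overlap and stricter peaks.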

Additional observations from a re-analysis of the deposited data

How the results depend on the processing

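No paired analysis was possible because each group has 1 library and the labels carry no replicate numbers. For the same reason no library could be left out. The counts of members past 2-fold and 1.5-fold did not move under the other pseudocounts, CPM, centring or filters tried. Of 40 alternatives of single log2 changes, 30 stayed within the counting interval, and the rest were those of centring, which moved each of the 10 genes. A turn of sign was counted only for genes past 1.5-fold, Cd34 and Sox4, and 0 turned. These changes were too large for the small shifts to turn them, so that count tests little. Centring on the median gene gave a median log2 change of −0.16. The share of untreated peaks found with vitamin C moved for H3K4me1 to 30.6% when the overlap had to cover 50% of the untreated peak and to 25.0% among the 50% strictest peaks of each list. With these settings H3K4me3 gave 75.7% for the overlap, and H3K27ac gave 90.5% and Runx1 0% among the strictest 50%. The Runx1 value rests on a subset of only 4 untreated peaks near the members. Shares of the whole lists were not computed at these settings, so the shifts cannot be set beside a background. The share of untreated H3K27ac peaks found with vitamin C was 82.7% without Cdk6 and 84.7% without Erg, beside 83.3% with all members. For the share of vitamin C H3K27ac peaks found untreated, the one below its whole list, neither gene was left out. The WGBS deMR count was 19 without Cdk6 and 21 without Erg. These alternatives were chosen after seeing the data. Among regions of at least 250 bp there were 8 WGBS deMRs and 0 WGBS iMRs. A window of 100 kb held 7 WGBS iMRs and 9 MeDIP iMRs, and a window of 10 kb held 7 MeDIP deMRs and 5 hMeDIP iHRs. Wider windows hold more regions by construction; the causes of the other shifts were not tested. Read depth leaves narrow counting intervals for the 10 genes, but not for biological spread between cultures.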
